A study of Mus musculus with 12 samples.

Results

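Genes that build and remodel the extracellular matrix were followed in mouse liver after injection of lipopolysaccharide (LPS), a cell wall component of Gram-negative bacteria. The genes were chosen by name, as 47 collagens, basement membrane proteins, matrix glycoproteins and proteoglycans, cross-linking enzymes, proteases and protease inhibitors. Of these, 44 had a probe on the array. Genes entered when at least 1 of the 12 arrays gave their probe a detection p below 0.01, with the brightest probe standing for the gene. That left 36 genes among the 9307 named genes and 2264 unnamed probes tested. Of the 36, 20 were detected on all 12 arrays and 16 on 1 to 11 arrays. The 11 others were Col6a3, Fbn1 and Loxl2, which had no probe matched to their symbol, and Col1a2, Col3a1, Col5a2, Lamb1, Eln, Fbln5, Efemp1 and Lox, whose probes were not detected on any array. The set thus holds 2 of 5 fibrillar collagens, 10 of 11 basement membrane genes, 3 of 4 genes for collagen VI and fibril-associated collagen, all 4 small proteoglycan and dermatopontin genes, 1 of 7 genes for elastic fibres and cross-linking, all 7 adhesive and matricellular glycoproteins, all 7 proteases and inhibitors, and both Serpinh1 and Tgfb1.

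The extracellular matrix is the meshwork of fibrous and adhesive proteins that surrounds cells. Fibrillar collagens give tensile strength, whereas type IV collagen, laminins, nidogens and perlecan assemble into the sheet called the basement membrane. In healthy liver the sinusoid, the wide capillary of the organ, has only sparse matrix and no continuous basement membrane. Hepatic stellate cells, portal fibroblasts and endothelial cells make most of the fibrous matrix, and hepatocytes secrete the soluble plasma proteins fibronectin and vitronectin. Matrix is broken down by matrix metalloproteinases (MMP) and by the ADAMTS proteases, and both families are held in check by the tissue inhibitors of metalloproteinases (TIMP).

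Livers of 12 mice of a mixed 129/Ola and C57BL/6 background were profiled, 3 in each of 4 groups. The KO LPS group lacked Tmprss6, the gene of the liver protease matriptase-2 that holds down the iron hormone hepcidin, was fed an iron replete diet and received 0.1 mg/kg LPS. The IDA LPS group were wild-type littermates on an iron deficient diet that received the same dose. The KO UT and IDA UT groups were the matching mice injected with saline (untreated, UT). All mice were 7 weeks old, had been on their diet for 3 weeks and were killed 6 hours after the injection. Diet differed along with genotype, so the part of either in any difference between KO and IDA livers cannot be told apart. Values are log2 intensities after background correction and quantile normalization. Differences are log2 ratios ± SE tested with limma over all 11571 genes and unnamed probes, and a gene was called at a Benjamini-Hochberg adjusted p under 0.05.

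Tmprss6 stood at log2 intensities of 7.72 to 8.39 in the 6 KO livers, against 9.43 to 11.21 in the 6 IDA livers. Of 9 hepatocyte markers 8 were detected, all but Fabp1. The number of detected probes was 13544 to 14423 in KO LPS, 12641 to 13089 in IDA LPS, 12986 to 14334 in KO UT and 12721 to 13272 in IDA UT livers. The detection floor of an array, the lowest log2 intensity it called detected, was 6.19 to 6.56 on KO arrays and 6.48 to 6.66 on IDA arrays, so a dim gene could be detected in a KO liver at a level that was not detectable in an IDA liver. Where no liver of a group detected a gene, a fold is therefore given only as a bound ("at least"). Such a bound divides the mean of the brighter group by a mean in which each array of the dimmer group counts at its detection floor, or at its measured value if this exceeded the floor. Livers KO UT 1, KO UT 2 and IDA UT 1 had Xist at log2 intensities of 11.84 to 12.05 and Eif2s3y at 4.80 to 4.94, against 4.80 to 6.73 and 9.27 to 10.16 in the 9 other livers, and results are also given without these 3. Both genes were read as a check of sex, which the labels do not give, and the study describes its KO mice as male. All 3 livers were untreated, so this difference runs partly along with LPS, more in KO than in IDA livers, and cannot be fully told apart from it. In bulk liver, fewer cells of a type and less RNA per cell cannot be told apart.

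LPS moved the matrix genes in both directions in IDA livers. In IDA LPS against IDA UT livers, 25 of the 36 genes were called, where 47.9% of all tested features were. Of these 10 rose, where 21.9% of all tested features rose, and 15 fell, where 26% of all features fell. The median log2 ratio was -0.34 over the matrix genes, or -0.14 once undetected values were raised to the detection floor, and -0.06 over all features. The genes that rose were Timp1, Adamts4, Col4a1, Adamts1, Serpinh1, Timp3, Col4a2, Fn1, Mmp14 and Vtn. The genes that fell were Lum, Timp2, Mmp2, Col6a1, Spon2, Col5a1, Nid2, Col14a1, Hspg2, Lamb2, Sparc, Bgn, Ecm1, Col18a1 and Tgfbi. Of 7 proteases and inhibitors measured 5 rose and 2 fell, and of the 2 genes Serpinh1 and Tgfb1 1 rose. Of 10 basement membrane genes 2 rose and 4 fell, and of 7 adhesive and matricellular genes 2 rose and 4 fell. Among 3 genes for collagen VI and fibril-associated collagen 2 fell, among 4 small proteoglycan and dermatopontin genes 2, and among 2 fibrillar collagens 1. No role group was tested against the others. The groups did not overlap for 10 genes that were higher and 17 that were lower in IDA LPS livers, where 25.6% and 30.4% of all features did so. Without the 3 Xist-positive livers 10 rose and 16 fell.

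In KO livers fewer matrix genes were called. In KO LPS against KO UT livers, 5 of 36 genes were called, where 18.8% of all features were. All 5 rose (Timp1, Col4a1, Col4a2, Fn1 and Mmp14), where 10.2% of all features rose, and 0 fell by limma, where 8.57% of all features fell. At an unadjusted p under 0.05, 11 of the 36 differed in either direction, against 3760 of all 11571 features. The groups did not overlap for 6 genes that were higher and 1 that was lower in KO LPS livers, where 18.1% and 18.9% of all features did so. The median log2 ratio was 0.00 over the matrix genes and -0.04 over all features. These counts depended on liver KO UT 1, which was the lowest of the 3 KO UT livers for 31 of the 36 genes, whereas it was the lowest for 37.9% of all named genes. Without it, 3 genes rose (Timp1, Col4a1 and Mmp14) and 3 fell (Nid2 by 1.01, Spon2 by 0.75 and Timp2 by 0.92 on the log2 scale). Leaving out KO UT 2 left 2 calls, and leaving out KO LPS 2 or KO LPS 3 left 3 calls each. Without both Xist-positive livers of this group the only gene called was Timp1, with 1 KO UT liver left in the fit.

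The Interaction contrast, the LPS log2 ratio in KO livers minus that in IDA livers, tested whether the responses differed. Of 36 genes it called 3, where 10.9% of all features were called. By limma 0 genes were called as higher, where 5.46% of all features were higher, and 3 were called as lower (Adamts1, Timp3 and Col4a1), where 5.49% of all features were lower. At an unadjusted p under 0.05 there were 11 of 36 genes, against 3089 of all 11571 features. For the 15 genes that fell in IDA livers the difference in response did not pass, and the nearest was Col18a1, with an Interaction of 0.43 ± 0.13 and an adjusted p of 0.0586. With the authors' intensities, or with no background correction, Col18a1 and Ecm1 also passed as higher, so that 5 genes were called. Col18a1 passed as higher with dim probes kept (adjusted p = 0.0391) and with undetected values at the detection floor (adjusted p = 0.0481). With the mean over probes Col18a1 and Tgfbi did (adjusted p = 0.0381 and 0.0203). The median Interaction was 0.41 over the matrix genes, or 0.02 with undetected values at the detection floor, and 0.03 over all features. Without the 3 Xist-positive livers 2 genes passed, Adamts1 and Col4a1.

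**Figure D1:**
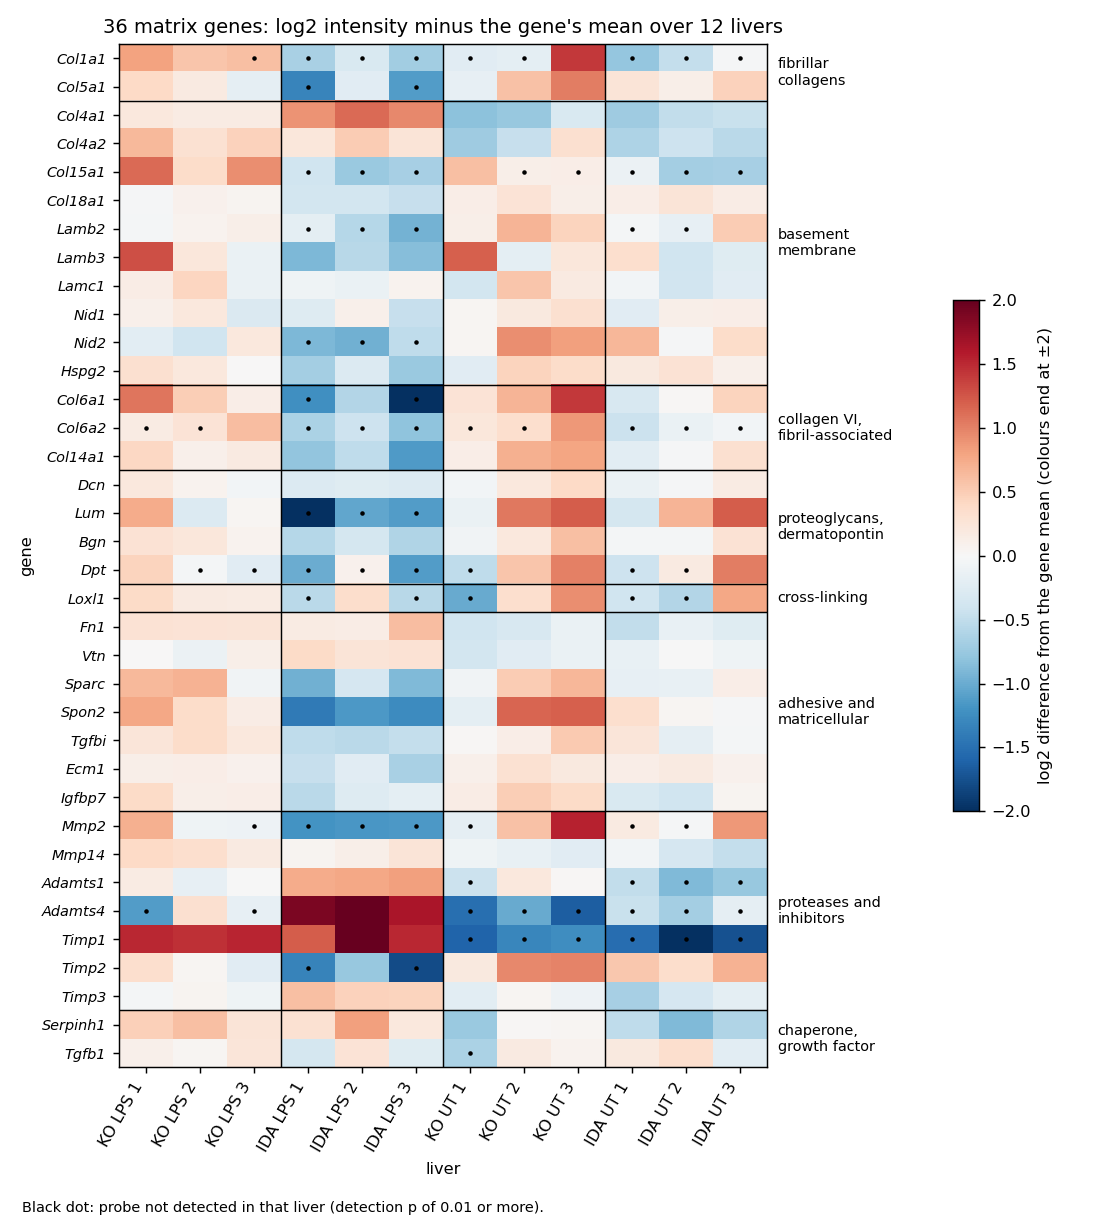
Log2 intensity of each of the 36 matrix genes (rows, grouped by role) in each of the 12 livers (columns), minus the gene's mean over the 12 livers. Black dots mark livers in which the probe was not detected, and the colour scale ends at a difference of 2 in either direction. Col14a1, Bgn, Spon2, Tgfbi and Hspg2 were lowest in the 3 IDA LPS livers, and Timp1 was high in all 6 LPS-treated livers.

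**Figure D2:**
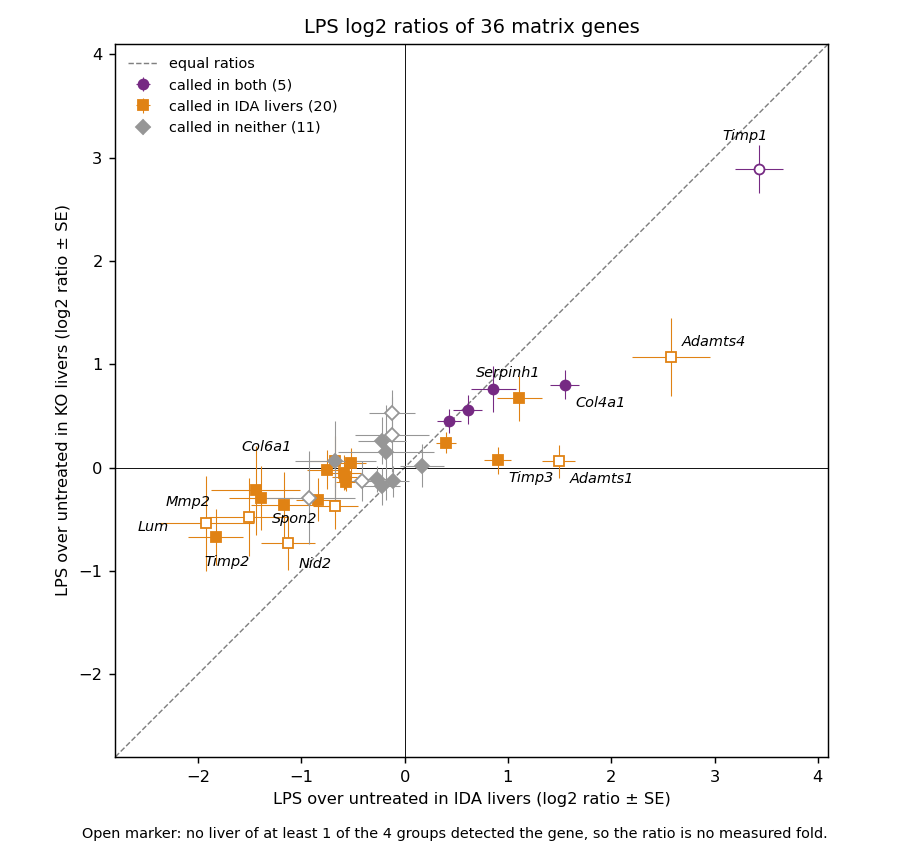
LPS over untreated log2 ratio in KO livers (vertical axis) against the same ratio in IDA livers (horizontal axis) for 36 matrix genes, with SE bars, 3 livers in each group. In IDA livers 10 genes rose and 15 fell, and in KO livers 5 rose, and the ratios differed by the Interaction test for Adamts1, Timp3 and Col4a1. Open markers are genes that no liver of at least 1 group detected.

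After LPS, more matrix genes were called higher than lower in KO livers relative to IDA livers. In KO LPS against IDA LPS livers, 23 of 36 genes were called, where 29.8% of all features were. Of these 18 were higher, where 16.1% of all features were higher, and 5 were lower (Adamts4, Col4a1, Adamts1, Timp3 and Vtn), where 13.7% of all features were lower. The median log2 ratio was 0.58 over the matrix genes and 0.02 over all features. Raising undetected values to the detection floor gave a median of 0.20, with 14 genes higher and 5 lower. Col1a1, Col15a1 and Col6a2, counted among the 18, were detected on no IDA array and so entered the set through KO livers alone. None of them was called with undetected values at the detection floor. The groups did not overlap for 21 genes that were higher and 5 that were lower in KO LPS livers, where 24.6% and 21.8% of all features did so. Without the 3 Xist-positive livers 20 were higher and 4 lower. This comparison and the LPS comparison of IDA livers share the IDA LPS livers, so low values there enter both.

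Without LPS, no matrix gene passed between KO and IDA livers. In KO UT against IDA UT livers, 0 of 36 genes passed in either direction by limma, where 2.5% of all features passed, 1.59% as higher and 0.907% as lower. At an unadjusted p under 0.05 there were 7 of 36, against 2031 of all 11571 features. The log2 ratio was above 0 for 32 of the 36 and for 5638 of all features, with a median of 0.23 over the matrix genes and -0.01 over all features. That median was 0.48 without KO UT 1, 0.09 without KO UT 3, 0.36 without IDA UT 3 and 0.51 without the 3 Xist-positive livers. The KO UT livers lay above every IDA UT liver for Col15a1, Col6a2, Igfbp7 and Adamts1, and below every one for Adamts4, which no untreated liver detected. Col15a1, Col6a2 and Adamts1 were detected in no IDA UT liver and in 1, 1 and 2 KO UT livers, so their order rests partly on undetected values. Adamts1 was at least 1.27-fold higher in KO UT livers, and no fold can be given for Col15a1 and Col6a2. That is 4 and 1 of 36 genes, where 11% and 11.3% of all features had groups that did not overlap. The nearest to the threshold were Adamts1 (adjusted p = 0.0629), Igfbp7 (adjusted p = 0.0759) and Col6a2 (adjusted p = 0.0886). Without KO UT 1, Adamts1 and Spon2 passed as higher (log2 ratio of 1.05 for Spon2), and without IDA UT 1 Adamts1 and Col15a1 did. No ratio is given for Adamts1 and Col15a1 in these fits, as no IDA UT liver detected them. Without the 3 Xist-positive livers the KO UT group is KO UT 3 alone, whose spread is assumed to be that of the other groups. Col1a1 was then the only gene called, and KO UT 3 is the liver with the high Col1a1 value.

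**Figure D3:**
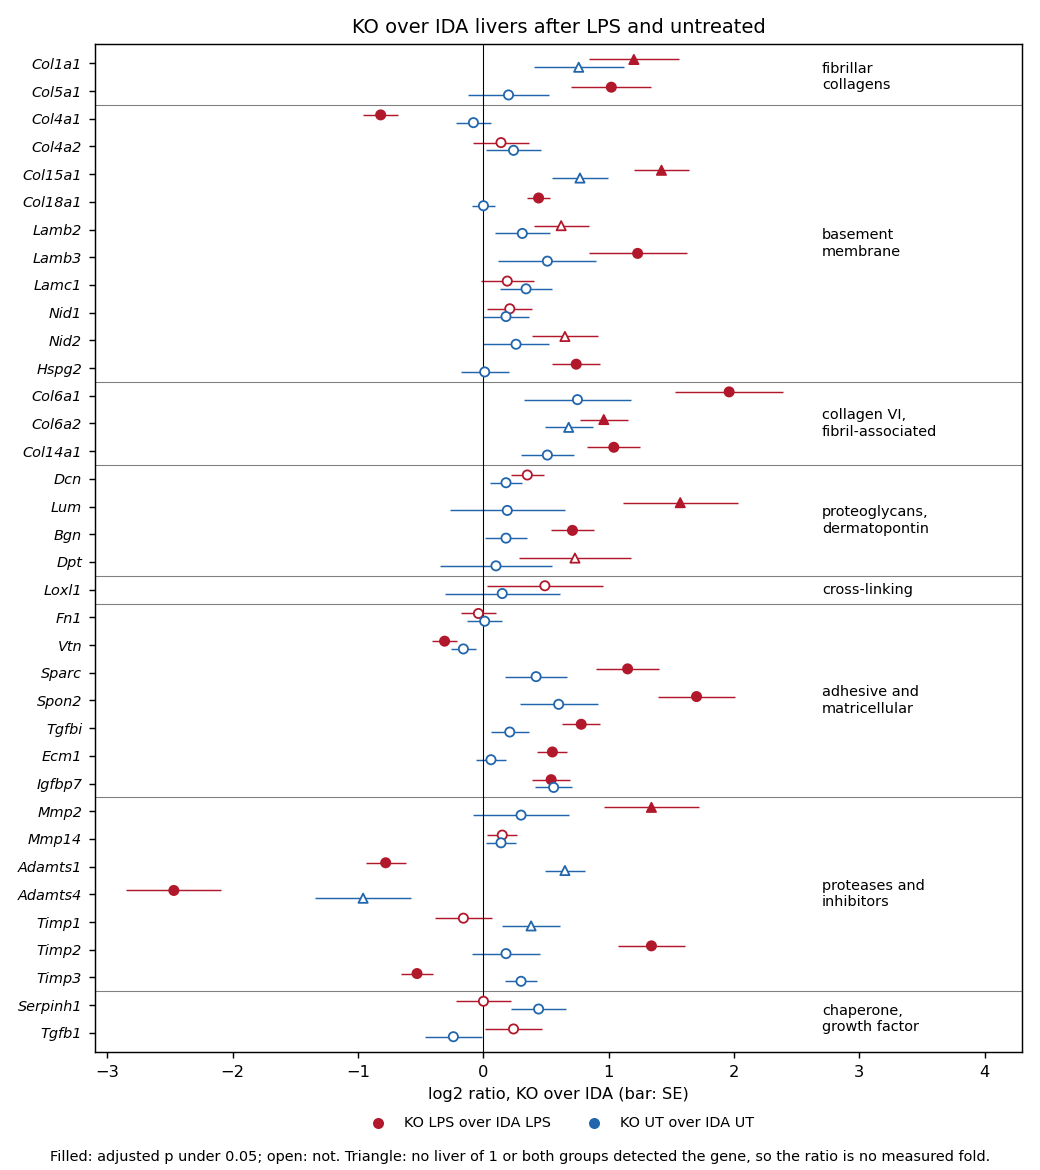
Log2 ratio of KO over IDA livers for each of the 36 matrix genes by role, after LPS (red) and untreated (blue), with SE bars and 3 livers in each group. Filled markers passed an adjusted p of 0.05, and triangles are genes that no liver of 1 or both groups detected. After LPS 18 genes passed to the right of 0 and 5 to the left, and in untreated livers 0 passed.

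Type IV collagen, the network collagen of basement membranes, rose after LPS. Col4a1 encodes one of its chains and had log2 intensities of 10.79, 10.75 and 10.75 in KO LPS and 11.49, 11.72 and 11.54 in IDA LPS livers, against 9.77, 9.83 and 10.28 in KO UT and 9.88, 10.09 and 10.14 in IDA UT livers. Every LPS-treated liver lay above every untreated liver, and the IDA LPS livers lay highest with no overlap. The log2 ratio to untreated was 0.80 ± 0.14 in KO livers (adjusted p = 0.00225) and 1.55 ± 0.14 in IDA livers (adjusted p = 5e-06), and after LPS KO livers were lower by -0.82 ± 0.14 (adjusted p = 0.0016). The Interaction was -0.74 ± 0.20 (adjusted p = 0.0355). That call was lost when any 1 of 8 livers was left out: IDA UT 1 or 2, IDA LPS 2 or 3, KO UT 3 or any KO LPS liver (log2 -0.58 to -0.77, adjusted p = 0.0596 to 0.0777). Without the 3 Xist-positive livers the ratio in KO livers was 0.48 (adjusted p = 0.0968).

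Col4a2 encodes the partner chain of Col4a1. Its log2 intensities were 10.28, 9.93 and 10.09 in KO LPS and 9.85, 10.14 and 9.88 in IDA LPS livers, against 8.91, 9.17 and 9.95 in KO UT and 9.01, 9.21 and 9.08 in IDA UT livers. KO UT 3 lay within the range of the LPS-treated livers and the other untreated livers lay below it. The ratio to untreated was 0.76 ± 0.22 in KO livers (adjusted p = 0.0335) and 0.86 ± 0.22 in IDA livers (adjusted p = 0.00717). After LPS KO and IDA livers overlapped, with a difference of 0.14 ± 0.22 and an adjusted p of 0.659. The call in KO livers was lost without KO UT 1, KO UT 2 or any KO LPS liver (adjusted p = 0.0569 to 0.115), and the ratio was 0.15 without the 3 Xist-positive livers.

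The genes Col4a1 and Col4a2 lie head to head, which is why the sequence around their starts is shown. In RefSeq's promoter windows of 250 bases before and 50 after the start of transcription (build GRCm38.p6), Col4a1 starts on the minus strand at position 11312826 of chromosome 8 and Col4a2 on the plus strand at 11312805, 21 bases apart. The minus-strand start has the higher position, so the first bases of both transcripts overlap and no sequence separates the genes. The bases before the Col4a1 start therefore lie beyond the Col4a2 start, in the direction in which Col4a2 is transcribed. The Col4a1 window, chr8:11312777-11313076, is printed in the direction of Col4a1, with the 78 bases it shares with the Col4a2 window in capitals.
Col4a1: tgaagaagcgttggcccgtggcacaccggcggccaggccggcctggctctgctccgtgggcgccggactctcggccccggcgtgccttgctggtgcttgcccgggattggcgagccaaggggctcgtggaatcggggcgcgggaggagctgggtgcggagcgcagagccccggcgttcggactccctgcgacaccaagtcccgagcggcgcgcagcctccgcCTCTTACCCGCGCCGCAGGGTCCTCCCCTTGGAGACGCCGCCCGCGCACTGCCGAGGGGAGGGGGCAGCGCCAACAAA
Both strands were searched for an AP-1 site, spelled TGANTCA. They were also searched for a TATA box, which reads TATAAA, and for a kappaB site in 2 forms. The SMAD element searched was GTCTNGAC, and no motif had a match in this window. The share of all 32851 windows that hold them is 7.81% for AP-1, 13.6% for TATA, 1.84% for SMAD and 1.63% and 1.47% for the kappaB forms. Of the 36 matrix genes 25 had a window, and among these AP-1 was found for Col6a1 and Ecm1, TATA for Dpt, Ecm1, Vtn and Adamts1, and SMAD and kappaB for 0 genes.

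Of the 8 other basement membrane genes, Hspg2 and Col18a1 were called lower in IDA LPS livers than in both IDA UT and KO LPS livers. Hspg2, the gene of the heparan sulfate proteoglycan perlecan, had log2 intensities of 9.33, 9.21 and 9.01 in KO LPS and 8.33, 8.74 and 8.26 in IDA LPS livers, against 8.78, 9.45 and 9.37 in KO UT and 9.20, 9.29 and 9.10 in IDA UT livers. All IDA LPS livers lay below all others. Relative to untreated, the ratio was -0.02 ± 0.19 in KO livers (adjusted p = 0.96) and -0.75 ± 0.19 in IDA livers (adjusted p = 0.00567), and after LPS KO livers were higher by 0.74 ± 0.19 (adjusted p = 0.0117).

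Col18a1, whose product is the source of the fragment endostatin and is made by hepatocytes as well, varied little between livers of a group. Its log2 intensities were 13.61, 13.71 and 13.69 in KO LPS and 13.26, 13.27 and 13.17 in IDA LPS livers, against 13.77, 13.91 and 13.75 in KO UT and 13.76, 13.88 and 13.78 in IDA UT livers. The IDA LPS livers stood below the other 9. It fell by 0.57 on the log2 scale in IDA livers (SE 0.09, adjusted p = 0.000386), and the ratio in KO livers was -0.14 ± 0.09 (adjusted p = 0.325). After LPS the difference of KO over IDA was 0.44 ± 0.09 (adjusted p = 0.00546).

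Lamb3 encodes a chain of the epithelial laminin of anchoring contacts. It had log2 intensities of 9.17, 8.10 and 7.75 in KO LPS and 6.97, 7.32 and 7.03 in IDA LPS livers, against 9.07, 7.68 and 8.10 in KO UT and 8.21, 7.47 and 7.64 in IDA UT livers. KO LPS 1, KO UT 1 and IDA UT 1 were the highest of their groups, and IDA LPS livers lay below all others. After LPS KO livers were higher by 1.23 ± 0.39 (adjusted p = 0.0326), a call that was lost without any IDA LPS liver or without KO LPS 1 or 2 (log2 0.82 to 1.35, adjusted p = 0.0508 to 0.123). The study had named Lamb3 and Lama1 on these same livers. It had also listed Spon2 and Adamts4 as differing between KO LPS and IDA LPS livers. The differences of these genes are thus not independent of that choice. Lamb2, another laminin chain, was called as lower in IDA LPS than in IDA UT livers (adjusted p = 0.0243) although IDA UT 3 was the only one of these 6 livers that detected it. No fold can be given, and the call was lost without IDA UT 3, IDA LPS 2 or IDA LPS 3 (adjusted p = 0.102, 0.0546 and 0.104) and with undetected values at the detection floor (-0.11, adjusted p = 0.655).

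Nid2, the gene of a nidogen that links laminin to type IV collagen, was detected in all 3 KO LPS livers (6.66, 6.47 and 7.08) and in no IDA LPS liver (5.98, 5.92 and 6.36), and in every untreated liver (6.91, 7.80 and 7.69 in KO UT and 7.54, 6.85 and 7.24 in IDA UT). IDA LPS livers were at least 1.52-fold lower than IDA UT livers (adjusted p = 0.00362), and the adjusted p was 0.057 with undetected values at the detection floor. The ratio of KO LPS to KO UT livers was -0.73 ± 0.26 (adjusted p = 0.0686). Col15a1, a collagen at the surface of basement membranes, was detected in all 3 KO LPS livers (7.13, 6.36 and 6.93), in KO UT 1 (6.60) and in none of the others (5.25 to 6.12). It was at least 1.15-fold higher in KO LPS than in IDA LPS livers (adjusted p = 0.000925), while raising undetected values to the detection floor gave a log2 ratio of 0.21 (adjusted p = 0.364). Lamc1 and Nid1 were detected in every liver and passed in no comparison, with log2 ratios of -0.22 to 0.34.

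Collagen VI forms beaded filaments around cells, and its gene Col6a1 was higher in KO LPS than in IDA LPS livers. Log2 intensities were 8.96, 8.37 and 8.01 in KO LPS and 6.65, 7.29 and 5.52 in IDA LPS livers, against 8.15, 8.56 and 9.30 in KO UT and 7.56, 7.90 and 8.32 in IDA UT livers. The IDA LPS livers lay below all 9 others, and of these 3 only IDA LPS 2 detected the gene. KO LPS livers were 3.90-fold higher than IDA LPS livers (log2 1.96 ± 0.43, adjusted p = 0.00589), or by 1.62 on the log2 scale with undetected values at the detection floor. In IDA livers the ratio to untreated was -1.44 ± 0.43 (adjusted p = 0.0155), which was lost without IDA UT 3 or IDA LPS 3 (-1.24 and -0.96, adjusted p = 0.0582 and 0.0625). In KO livers it was -0.22 ± 0.43 (adjusted p = 0.763), and the Interaction of 1.22 ± 0.61 did not pass (adjusted p = 0.226). A second probe gave 1.49 for KO over IDA after LPS.

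The promoter window of Col6a1 is shown since it holds AP-1 letters. The window, chr10:76725995-76726294 on the minus strand of GRCm38.p6, has the match in capitals, at position -90 from the start of transcription.
Col6a1: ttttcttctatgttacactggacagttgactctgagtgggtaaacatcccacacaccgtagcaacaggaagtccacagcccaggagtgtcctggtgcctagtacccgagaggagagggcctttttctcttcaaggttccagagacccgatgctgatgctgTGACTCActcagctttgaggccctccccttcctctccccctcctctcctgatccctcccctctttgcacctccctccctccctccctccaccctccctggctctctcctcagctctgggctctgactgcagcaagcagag

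Col14a1, a collagen that decorates fibrils, had log2 intensities of 8.82, 8.51 and 8.58 in KO LPS and 7.61, 7.90 and 7.27 in IDA LPS livers, against 8.53, 9.11 and 9.20 in KO UT and 8.20, 8.38 and 8.73 in IDA UT livers. The IDA LPS livers again lay below all others. After LPS, KO livers were higher by 1.04 ± 0.21 (adjusted p = 0.00415), and the ratio to untreated was -0.31 ± 0.21 in KO livers (adjusted p = 0.354) and -0.84 ± 0.21 in IDA livers (adjusted p = 0.0066). Col6a2, the partner of Col6a1, was detected in KO LPS 3 and KO UT 3 alone. It was called as higher in KO LPS than in IDA LPS livers (adjusted p = 0.00358), but no fold can be given, and the sign turned with undetected values at the detection floor (-0.31).

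Of the fibrillar collagens, Col1a1 and Col5a1 were measured. Col5a1, whose product starts collagen fibrils, had log2 intensities of 7.91, 7.69 and 7.33 in KO LPS and 6.19, 7.29 and 6.40 in IDA LPS livers, against 7.35, 8.11 and 8.54 in KO UT and 7.78, 7.64 and 7.97 in IDA UT livers. IDA LPS 2 was the only liver of its group that detected it and lay just below the lowest KO LPS and KO UT livers. The difference of KO over IDA after LPS was 1.02 ± 0.32 (adjusted p = 0.0317), a call lost without IDA LPS 1 or 3 or KO LPS 1 or 2 (log2 0.80 to 0.99, adjusted p = 0.0784 to 0.114). Relative to untreated, it was -0.36 ± 0.32 in KO livers (adjusted p = 0.475) and -1.17 ± 0.32 in IDA livers (adjusted p = 0.00964). Col1a1, a chain of type I collagen, was detected in KO LPS 1 and 2 (6.56 and 6.31) and in KO UT 3 (7.18), and in none of the IDA livers (4.99 to 5.74). Its call as higher in KO LPS than in IDA LPS livers (adjusted p = 0.0284) carries no fold, turned to -0.18 with undetected values at the detection floor, and was lost without IDA LPS 1 or 3 or any KO LPS liver (adjusted p = 0.0571 to 0.0856).

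The small leucine-rich proteoglycans decorin, lumican and biglycan bind collagen fibrils and set their spacing. Lum was detected in all 3 KO LPS livers (8.08, 7.07 and 7.37) and in no IDA LPS liver (5.30, 6.29 and 6.22), against 7.21, 8.39 and 8.54 in KO UT and 6.99, 8.02 and 8.55 in IDA UT livers, where all detected it. It was at least 1.87-fold higher in KO LPS than in IDA LPS livers (adjusted p = 0.0229), with adjusted p = 0.0859 without IDA LPS 1, 0.0888 without KO LPS 1 and 0.0968 with undetected values at the detection floor. In IDA livers it was at least 2.38-fold lower after LPS than untreated (adjusted p = 0.00457), and the ratio in KO livers was -0.54 ± 0.46 (adjusted p = 0.455).

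Bgn, the gene of biglycan, had log2 intensities of 12.02, 11.97 and 11.81 in KO LPS and 11.16, 11.38 and 11.13 in IDA LPS livers, against 11.67, 11.94 and 12.34 in KO UT and 11.69, 11.70 and 12.03 in IDA UT livers. It was lowest in all 3 IDA LPS livers, with a KO over IDA difference of 0.71 ± 0.17 after LPS (adjusted p = 0.00839). Its ratio of -0.59 ± 0.17 in IDA livers (adjusted p = 0.0122) was lost without IDA UT 3 (adjusted p = 0.0527). Dcn, the gene of decorin, had the same order of group means, but its brightest probe passed in no comparison (0.35 ± 0.13 for KO LPS over IDA LPS, adjusted p = 0.0664). Other Dcn probes, detected on 12, 11 and 3 arrays, gave 0.63, 0.66 and -0.06 there, and -0.53, -1.08 and -0.49 for LPS in IDA livers. The fall in IDA livers passed with the mean over probes (-0.60, adjusted p = 0.0138). Without background correction the difference after LPS passed (0.34, adjusted p = 0.0427). Dpt, the gene of the collagen-binding protein dermatopontin, was detected in 4 livers and passed in no comparison. Loxl1, a lysyl oxidase that cross-links elastin and collagen, had log2 intensities of 6.65, 6.45 and 6.43 in KO LPS, 5.73, 6.62 and 5.72 in IDA LPS, 5.26, 6.61 and 7.20 in KO UT and 5.88, 5.69 and 7.04 in IDA UT livers. These groups overlapped, and Loxl1 passed in no comparison.

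Among the matricellular proteins, which act on cells more than they bear load, Spon2, Sparc, Tgfbi, Ecm1 and Igfbp7 were higher in KO LPS than in IDA LPS livers. Spon2, a secreted spondin, had log2 intensities of 11.74, 11.33 and 11.10 in KO LPS and 9.55, 9.81 and 9.70 in IDA LPS livers, against 10.77, 12.12 and 12.15 in KO UT and 11.30, 11.00 and 10.94 in IDA UT livers. The IDA LPS livers lay over 1 log2 unit below the lowest KO LPS liver, and KO UT 1 lay well below the other KO UT livers. KO LPS livers were 3.26-fold higher (log2 1.70 ± 0.31, adjusted p = 0.00233). The ratio to untreated was -0.29 ± 0.31 in KO livers (adjusted p = 0.562) and -1.39 ± 0.31 in IDA livers (adjusted p = 0.00315), and the Interaction was 1.10 ± 0.44 (adjusted p = 0.13).

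Sparc, a collagen-binding glycoprotein, had log2 intensities of 11.10, 11.15 and 10.39 in KO LPS and 9.50, 10.12 and 9.58 in IDA LPS livers, against 10.39, 10.96 and 11.12 in KO UT and 10.30, 10.31 and 10.59 in IDA UT livers. KO LPS 3 and KO UT 1 were the low livers of the KO groups, and both stood above every IDA LPS liver. KO over IDA after LPS was 1.15 ± 0.25 (adjusted p = 0.00544). The ratio of -0.67 ± 0.25 in IDA livers (adjusted p = 0.0418) was lost without any IDA UT liver, IDA LPS 1 or 3, or KO UT 2 (log2 -0.55 to -0.72, adjusted p = 0.0506 to 0.134), and with the mean over its probes (-0.39, adjusted p = 0.102). In KO livers it was 0.06 ± 0.25 (adjusted p = 0.905).

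Tgfbi, an adhesive protein induced by TGF-beta, had log2 intensities of 11.04, 11.17 and 11.01 in KO LPS and 10.30, 10.26 and 10.33 in IDA LPS livers, against 10.83, 10.93 and 11.33 in KO UT and 11.05, 10.63 and 10.77 in IDA UT livers. The 3 IDA LPS livers lay close together and below all others. Tgfbi was higher by 0.78 ± 0.15 in KO LPS livers (adjusted p = 0.00272), and the ratio in IDA livers was -0.52 ± 0.15 (adjusted p = 0.0119). Ecm1, which in mouse liver keeps stored TGF-beta inactive, was higher by 0.55 ± 0.12 in KO LPS livers (adjusted p = 0.0051), with a ratio to untreated of -0.09 ± 0.12 in KO livers (adjusted p = 0.63) and -0.58 ± 0.12 in IDA livers (adjusted p = 0.00167). Igfbp7 differed from these in that KO over IDA was as large untreated (0.56 ± 0.15, adjusted p = 0.0759) as after LPS (0.54 ± 0.15, adjusted p = 0.0197). The call after LPS was lost without IDA LPS 1 or KO LPS 1 (0.44 and 0.46, adjusted p = 0.0757 and 0.0756).

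The adhesive plasma proteins rose after LPS in IDA livers, and Fn1 also in KO livers. Fn1, the gene of fibronectin, had log2 intensities of 12.96, 12.95 and 12.92 in KO LPS and 12.83, 12.82 and 13.29 in IDA LPS livers, against 12.27, 12.35 and 12.53 in KO UT and 12.17, 12.52 and 12.42 in IDA UT livers. All 6 LPS-treated livers lay above the 6 untreated ones. The ratio to untreated was 0.56 ± 0.14 in KO livers (adjusted p = 0.0195) and 0.61 ± 0.14 in IDA livers (adjusted p = 0.00457), with an Interaction of -0.05 ± 0.21 (adjusted p = 0.91) and a difference of -0.04 ± 0.14 between KO LPS and IDA LPS livers (adjusted p = 0.867). The call in KO livers was lost without KO UT 1 or 2 or KO LPS 2 or 3 (adjusted p = 0.0501 to 0.0671). Vtn, the gene of vitronectin, rose by 0.40 ± 0.10 in IDA livers (adjusted p = 0.00834). The ratio in KO livers was 0.24 ± 0.10 (adjusted p = 0.136). After LPS KO livers were lower by -0.31 ± 0.10 (adjusted p = 0.0419), a call that omitting any 1 of 8 livers ended: any IDA LPS liver, KO LPS 1 or 2, IDA UT 2 or 3, or KO UT 2 (adjusted p = 0.0507 to 0.135).

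**Figure D4:**
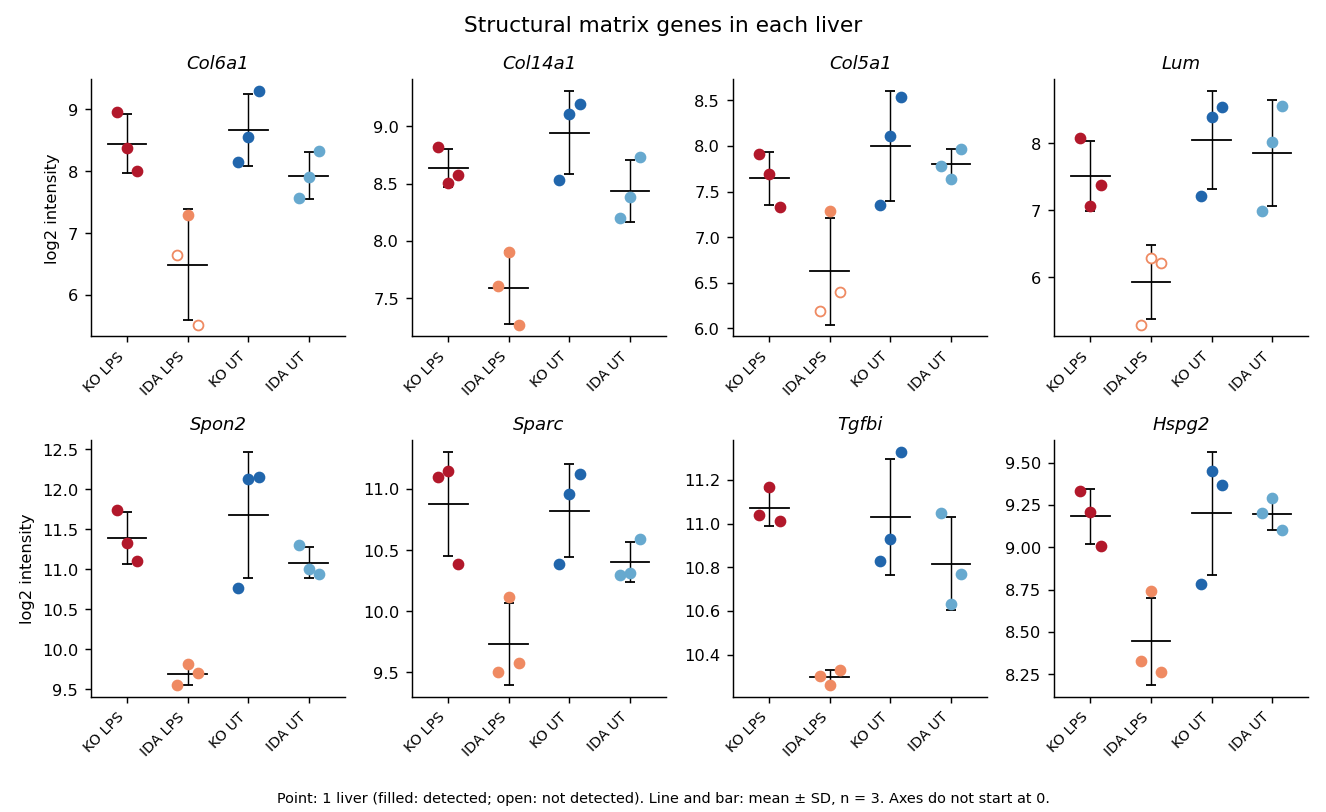
Log2 intensity in each liver of 8 structural and matricellular matrix genes in KO LPS, IDA LPS, KO UT and IDA UT mice (3 livers each), with the mean and SD. Filled points are livers that detected the gene and open points are livers that did not. For each of these genes the IDA LPS mean is the lowest of the 4.

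The inhibitor Timp1 rose after LPS in both KO and IDA livers. Its product blocks most secreted metalloproteinases and is a known marker of liver injury. Log2 intensities were 8.69, 8.64 and 8.70 in KO LPS and 8.39, 9.44 and 8.69 in IDA LPS livers, against 5.57, 5.87 and 5.93 in KO UT and 5.65, 5.13 and 5.43 in IDA UT livers. All 6 LPS-treated livers detected it and none of the 6 untreated livers did. It was at least 5.02-fold higher in KO LPS than in KO UT livers (adjusted p = 1e-05) and at least 4.94-fold higher in IDA LPS than in IDA UT livers (adjusted p = 6.01e-07). After LPS KO and IDA livers overlapped, with a difference of -0.16 ± 0.23 and an adjusted p of 0.626.

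Timp3 and Timp2 moved in opposite directions after LPS in IDA livers, and neither was called in KO livers. Timp3, whose product is bound to the matrix and also inhibits ADAMTS proteases, had log2 intensities of 10.61, 10.71 and 10.57 in KO LPS and 11.25, 11.11 and 11.10 in IDA LPS livers, against 10.44, 10.68 and 10.55 in KO UT and 9.99, 10.32 and 10.45 in IDA UT livers. The KO LPS and KO UT livers overlapped, and the IDA LPS livers lay above all others. The ratio to untreated was 0.07 ± 0.13 in KO livers (adjusted p = 0.737) and 0.90 ± 0.13 in IDA livers (adjusted p = 0.000143), and KO LPS livers were lower by -0.53 ± 0.13 (adjusted p = 0.01). The Interaction was -0.83 ± 0.18 (adjusted p = 0.0158), and it was -0.69 without the 3 Xist-positive livers (adjusted p = 0.0802).

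Timp2, whose product also takes part in the activation of Mmp2, had log2 intensities of 7.84, 7.54 and 7.28 in KO LPS and 6.17, 6.75 and 5.71 in IDA LPS livers, against 7.70, 8.47 and 8.49 in KO UT and 8.05, 7.86 and 8.20 in IDA UT livers. IDA LPS livers lay below all others, and only IDA LPS 2 detected the gene. LPS over untreated was -0.67 ± 0.27 in KO livers (adjusted p = 0.112) and -1.83 ± 0.27 in IDA livers (adjusted p = 0.000201). KO LPS livers were 2.54-fold higher than IDA LPS livers (log2 1.34 ± 0.27, adjusted p = 0.00394), and the Interaction was 1.16 ± 0.38 (adjusted p = 0.0759).

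The aggrecan- and versican-cleaving proteases Adamts4 and Adamts1 were high in IDA LPS livers. Adamts4 had log2 intensities of 5.32, 6.76 and 6.28 in KO LPS and 8.32, 9.38 and 8.07 in IDA LPS livers, against 4.93, 5.43 and 4.79 in KO UT and 6.00, 5.77 and 6.27 in IDA UT livers. All 3 IDA LPS livers and KO LPS 2 detected it, and no other liver did. IDA LPS livers were at least 4.15-fold higher than IDA UT livers (adjusted p = 0.000195). KO LPS livers were lower than IDA LPS livers by -2.47 ± 0.38 (adjusted p = 0.000899), or by -2.14 with undetected values at the detection floor. The study had listed Adamts4 as lower here too, with a smaller absolute log2 ratio on its cubic spline-normalized intensities. In KO livers LPS gave no call (adjusted p = 0.0719) and no fold.

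Adamts1 had log2 intensities of 7.10, 6.78 and 6.93 in KO LPS and 7.69, 7.72 and 7.76 in IDA LPS livers, against 6.51, 7.16 and 6.96 in KO UT and 6.45, 6.06 and 6.18 in IDA UT livers, none of which detected it. The IDA LPS livers lay above all others and the KO LPS livers among the KO UT livers. LPS gave at least a 2.27-fold rise in IDA livers (adjusted p = 2.2e-05), whereas the ratio in KO livers was 0.06 ± 0.16 (adjusted p = 0.841). KO LPS livers were lower by -0.78 ± 0.16 (adjusted p = 0.00487). The Interaction was -1.43 ± 0.23 (adjusted p = 0.00404), or -1.14 with undetected values at the detection floor (adjusted p = 0.0049). A second, dimmer Adamts1 probe, detected on 2 arrays, differed by 0.08 after LPS, and with the mean of both probes neither the difference after LPS (-0.35, adjusted p = 0.119) nor the Interaction (-0.76, adjusted p = 0.0561) passed.

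The promoter windows of the inducible genes Timp1 and Adamts1 are shown, Timp1 for its rise in both KO and IDA livers and Adamts1 for the largest called Interaction. The Timp1 window is chrX:20869916-20870215 on the plus strand and the Adamts1 window chr16:85803064-85803363 on the minus strand of GRCm38.p6, from RefSeq. The capitals in the Adamts1 window mark the TATA letters, at position -32 from the start of transcription, and no letters of the motifs searched were in the Timp1 window.
Timp1: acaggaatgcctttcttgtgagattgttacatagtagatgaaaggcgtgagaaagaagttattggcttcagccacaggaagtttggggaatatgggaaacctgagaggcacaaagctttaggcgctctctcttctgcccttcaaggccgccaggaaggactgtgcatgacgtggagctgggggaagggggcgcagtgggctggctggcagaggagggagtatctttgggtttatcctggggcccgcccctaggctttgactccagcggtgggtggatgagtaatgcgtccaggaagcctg
Adamts1: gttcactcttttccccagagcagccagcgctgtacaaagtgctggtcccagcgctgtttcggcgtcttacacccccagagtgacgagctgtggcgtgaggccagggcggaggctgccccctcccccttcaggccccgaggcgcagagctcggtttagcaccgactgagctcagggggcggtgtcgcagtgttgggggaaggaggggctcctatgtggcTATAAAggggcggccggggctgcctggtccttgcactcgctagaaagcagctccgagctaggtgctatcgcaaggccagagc

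Mmp2, the gene of a gelatinase that cleaves denatured collagen and type IV collagen, was detected in KO LPS 1 and 2 (7.02 and 6.22, against 6.20 in KO LPS 3), in no IDA LPS liver (5.11, 5.15 and 5.16), in KO UT 2 and 3 (6.90 and 7.84, against 6.13 in KO UT 1) and in IDA UT 3 (7.18, against 6.48 and 6.29). The IDA LPS livers lay below all others. It was called as higher in KO LPS than in IDA LPS livers (adjusted p = 0.0203), with no fold that can be given and a ratio of -0.06 with undetected values at the detection floor, and this was lost without IDA LPS 1 or 3 or KO LPS 1 (adjusted p = 0.0521 to 0.0814). The fall in IDA livers was at least 1.03-fold (adjusted p = 0.00613), or -0.17 with undetected values at the detection floor (adjusted p = 0.695). Mmp14, a membrane-bound protease that activates Mmp2, rose by 0.45 ± 0.12 in KO livers (adjusted p = 0.0264) and by 0.43 ± 0.12 in IDA livers (adjusted p = 0.0131). The call in KO livers was lost without KO UT 2 or 3 or KO LPS 1 or 2 (adjusted p = 0.0658 to 0.082), and that in IDA livers without IDA UT 3 or IDA LPS 3 (adjusted p = 0.0585 and 0.0503).

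**Figure D5:**
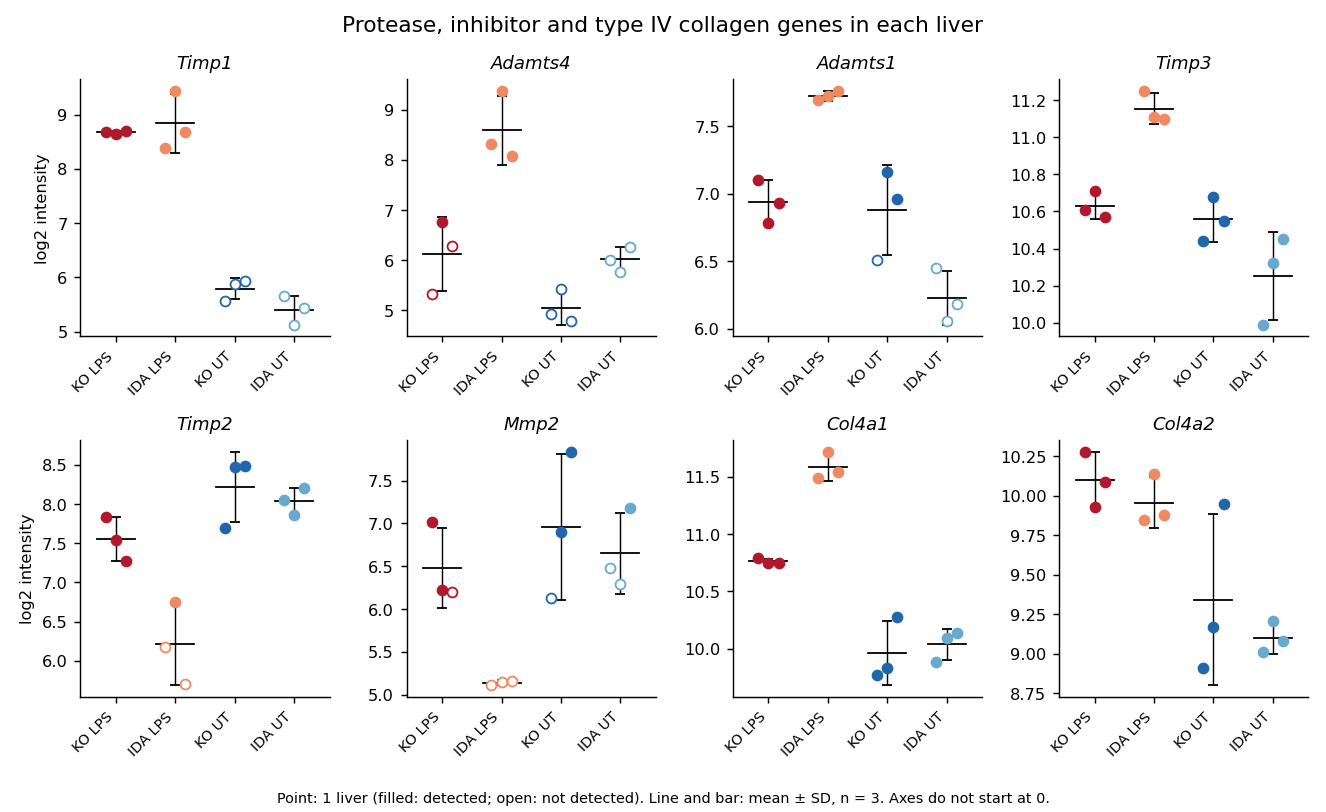
Log2 intensity in each liver of 6 protease and inhibitor genes and of Col4a1 and Col4a2 in KO LPS, IDA LPS, KO UT and IDA UT mice (3 livers each), with the mean and SD. Filled points are livers that detected the gene and open points are livers that did not. Timp1 rose in both LPS groups, Adamts1 and Timp3 were highest in IDA LPS livers, and Timp2 and Mmp2 were lowest there.

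Serpinh1, the gene of the collagen chaperone of the endoplasmic reticulum, had log2 intensities of 10.34, 10.47 and 10.12 in KO LPS and 10.17, 10.69 and 10.07 in IDA LPS livers, against 9.13, 9.89 and 9.90 in KO UT and 9.36, 8.98 and 9.27 in IDA UT livers. Every LPS-treated liver lay above every untreated one. The ratio was 0.67 ± 0.22 in KO livers (adjusted p = 0.0576) and 1.11 ± 0.22 in IDA livers (adjusted p = 0.00167), and the Interaction of -0.44 ± 0.32 did not pass (adjusted p = 0.415). Tgfb1, the gene of the growth factor that drives matrix production by stellate cells, passed in no comparison, with log2 ratios between groups of -0.24 to 0.26 and an Interaction of 0.48 ± 0.32 (adjusted p = 0.384).

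A wider list of 93 further matrix genes, by function, had 55 that were measured. In KO LPS against IDA LPS livers 14 were higher and 6 lower, where 16.1% and 13.7% of all features were. In IDA LPS against IDA UT livers 16 rose and 12 fell, where 21.9% and 26% of all features did. In KO LPS against KO UT livers 5 rose and 8 fell, where 10.2% and 8.57% of all features did, and in untreated livers 4 were higher in KO and 0 lower, where 1.59% and 0.907% of all features were. The collagenase Mmp13 rose after LPS, at least 6.96-fold in KO livers (adjusted p = 1.22e-06) and at least 7.56-fold in IDA livers (adjusted p = 1.1e-07). The hyaluronan receptor Cd44 rose by 1.79 ± 0.26 in KO livers and by 1.95 ± 0.26 in IDA livers (adjusted p = 0.000593 and 7.86e-05). The Interaction called 2 as higher and 7 as lower, where 5.46% and 5.49% of all features were called. Among the 10 collagen processing enzymes measured, 0 were higher and 4 lower by this test, with no test between lists. These were the prolyl hydroxylases P4ha1 (-1.44 ± 0.33, adjusted p = 0.02) and P3h1 (-0.85 ± 0.24, adjusted p = 0.0401). The others were the lysyl hydroxylases Plod2 (adjusted p = 0.0393) and Plod3 (-0.80 ± 0.20, adjusted p = 0.0272). P3h1 and Plod3 were named after their values were seen. Plod2 was detected in the 3 IDA LPS livers and in no other liver. It thus entered through the group where it was high, and its Interaction is no measured ratio. In untreated livers the matricellular gene Ccn1 was at least 9.06-fold higher in KO than in IDA livers (adjusted p = 0.00453), with log2 intensities of 8.56, 11.03 and 9.56 in KO UT livers against 6.39, 5.35 and 5.23 in IDA UT livers. The study had already listed this gene on these same livers, as Cyr61, with a ratio smaller than this bound. Its intensities were cubic spline-normalized, so the bound holds only for the intensities used here.

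Some markers of cell types that a liver sample holds were also called between groups. Of all features, 16.1% were higher and 13.7% lower in KO LPS than in IDA LPS livers. After LPS 21.9% of all features rose and 26% fell in IDA livers, and 10.2% rose and 8.57% fell in KO livers. These shares stand beside every marker list below, and no list was tested against them. Of 16 stellate cell markers 12 were measured, 3 were higher and 0 lower in KO LPS than in IDA LPS livers, 0 rose and 5 fell in IDA LPS against IDA UT livers, and 1 rose and 1 fell in KO LPS against KO UT livers. Their summed normalized intensity was 5724 to 7268 in KO LPS, 3748 to 4554 in IDA LPS, 5565 to 9046 in KO UT and 7078 to 8262 in IDA UT livers, and Hand2, Tagln and Gfap were among those not measured. By summed intensity the IDA LPS range lay below that of each other group, but by mean log2 intensity it was 7.42 to 7.74 in IDA LPS livers and overlapped the 7.71 to 8.48 of KO UT livers. Of 14 endothelial markers 13 were measured (all but Kdr), 6 were higher and 0 lower in KO LPS than in IDA LPS livers, 1 rose and 8 fell in IDA livers after LPS, and 0 rose and 5 fell in KO livers after LPS. Their sum was 12002 to 12789 in KO LPS, 8009 to 8382 in IDA LPS, 16249 to 19189 in KO UT and 13262 to 16181 in IDA UT livers.

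Of 12 Kupffer cell and macrophage markers 10 were measured (all but Cd5l and Cd68), 8 were higher and 0 lower in KO LPS than in IDA LPS livers, 1 rose and 7 fell in IDA livers after LPS, and 1 rose and 3 fell in KO livers after LPS. Their sum was 5298 to 8456 in KO LPS, 3724 to 4507 in IDA LPS, 7738 to 8136 in KO UT and 7224 to 9164 in IDA UT livers. Of 10 neutrophil markers 6 were measured (all but Ngp, Camp, Elane and Mpo), 0 were higher and 3 lower in KO LPS than in IDA LPS livers, and 5 rose in each LPS comparison. Their sum was 3577 to 8587 in KO LPS, 14813 to 18920 in IDA LPS, 862 to 1272 in KO UT and 593 to 1974 in IDA UT livers. The defining cholangiocyte markers Krt7, Krt19 and Epcam were not among the measured. The part of these cell types in the matrix results was not tested.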

How the data were processed

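RNA of 12 livers was hybridized to Illumina BeadChips and read with GenomeStudio, whose version is not given in the sources used here. The deposited average signal per probe is an intensity that was not normalized, and the authors supplied a detection p-value with it. The authors' cubic spline-normalized intensity values served as an alternative. Raw intensities were corrected and quantile-normalized with neqc (offset 16) in limma 3.58.1 under R 4.3.3. Of 45281 probes 34885 had 1 gene symbol, 18 several and 10378 none. Probes detected on no array (p of 0.01 or more) were left out, and the brightest probe was kept. A model of 4 group means was fitted to all 12 arrays (empirical Bayes) and tested on simulated data. Livers with an undetected group were given bounds. The members and gene lists were chosen with earlier results of these data known. Values per liver are given for genes called with an absolute log2 ratio over 1 and for the largest ratio of each role group, and some further genes were added after their values were seen. Other lists give at most 4 called genes a comparison. With 3 livers a group an exact test of 1 gene could not go below 0.1. Chip positions are not used here. Each result was repeated with the authors' values, without background correction, with other filters and probes, undetected values at the detection floor, fewer groups, replicate number as a block, the methods' threshold, and leaving out livers. Figures were drawn with matplotlib 3.10.9.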

Additional observations from a re-analysis of the deposited data

Results flagged for a closer look

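The LPS response differed between KO and IDA livers for 3 matrix genes by limma's test of the difference itself. The Interaction, the log2 ratio in KO livers minus that in IDA livers, was -0.74 for Col4a1 (adjusted p = 0.0355), -1.43 for Adamts1 (adjusted p = 0.00404) and -0.83 for Timp3 (adjusted p = 0.0158). All 3 rose in IDA livers, and of these Col4a1 alone also rose in KO livers. The Col4a1 difference did not pass when any 1 of 8 livers was left out (IDA UT 1 or 2, IDA LPS 2 or 3, KO UT 3 or any KO LPS liver), with adjusted p = 0.0596 to 0.0777. That of Adamts1 fell to -0.76 with the mean of its 2 probes (adjusted p = 0.0561), and that of Timp3 was -0.69 without the 3 Xist-positive livers (adjusted p = 0.0802). The causes were not tested. Groups of 3 livers are too small for a test of single outlying livers.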

How the results depend on the processing

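Of the 23, 25, 5 and 3 genes called in KO LPS against IDA LPS, LPS in IDA, LPS in KO and Interaction, leaving out 1 liver ended 7, 5, 3 and 1 calls. The number called then ranged over 16 to 26, 20 to 25, 2 to 7 and 2 to 4, and over 0 to 2 for KO UT against IDA UT, where 2 passed without KO UT 1 and 2 without IDA UT 1. In LPS in KO, 2 passed without KO UT 2 and 3 each without KO LPS 2 and KO LPS 3. At the methods' threshold, which also asks for an absolute log2 ratio over 1, there were 12 (11 higher, 1 lower), 12 (5 higher, 7 lower), 1 and 1 calls. The share of all features passing that threshold was not counted, so these counts have nothing to be set against. Without the 3 Xist-positive livers 1 gene passed in KO UT against IDA UT (Col1a1) and 1 in LPS in KO (Timp1), with KO UT 3 the only KO UT liver and its spread assumed to be that of the other groups. Interaction had 5 calls (2 higher, 3 lower) with the authors' intensities and with no background correction, and 5 (1 higher, 4 lower) with undetected values at each array's detection floor, where LPS in KO had 8 (6 higher, 2 lower). That last setting turned 3 genes of KO LPS against IDA LPS, Col1a1 to -0.18, Col6a2 to -0.31 and Mmp2 to -0.06, since KO arrays detect lower intensities. Deviations from the group means correlated by -0.11 to 0.24 between livers of the same replicate number. Such correlations cannot settle whether these livers were paired, and the labels name no pairs. With replicate number as a block, 1 gene passed in KO UT against IDA UT (Col15a1), 22, 25, 7 and 3 passed elsewhere, and the call lost was Vtn after LPS.

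Of the 36 genes 16 were detected on only part of the 12 arrays, and where no liver of a group detected a gene its difference is known only as a bound. The 3 livers of a group limit the precision of each mean.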
